A study of Danio rerio with 4 samples.

Results

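EnSpm elements are a superfamily of DNA transposons, and the EnSpm families of the zebrafish were followed here in RNA libraries of uhrf1 mutant larvae and of their siblings. The members were all repeat names that start with EnSpm in the deposited repeat table, in either case of letters. This gave 19 names out of 11258. The rule itself used no measured value, but it was chosen with earlier results of these data known. Of the 11258 names, 1041 are not simple repeats, low-complexity stretches or RNA repeats, and they are called named families below. All 19 EnSpm names had reads in every library and passed the count filter.

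EnSpm elements, also known as CACTA elements, move by a cut-and-paste mechanism in which a transposase made by an autonomous copy binds the inverted repeats at the ends of an element, cuts it out and inserts it elsewhere. Non-autonomous copies lack a working transposase gene and depend on an enzyme made by others. Vertebrate genomes keep transposon copies largely methylated, and Uhrf1 is needed for this because it brings the maintenance methyltransferase Dnmt1 to newly replicated DNA. By the naming convention of repeat libraries, an N in the number part of a name marks a non-autonomous consensus. By that spelling 6 EnSpm names were autonomous (ENSPM-6_DR, EnSpm-2_DR, EnSpm-3_DR, EnSpm-4_DR, EnSpm-5_DR and EnSpm1_DR) and 13 were non-autonomous.

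The mutant group has the genotype uhrf1(hi272), an insertion allele. It was set against siblings that looked normal. Larvae were sorted by appearance, so the genotypes within the sibling group are not given. In the table headers the sibling columns carry the name ABNYU, whose meaning is not given, where the mutant columns carry the allele number. Both groups were zebrafish larvae of 5 days, anaesthetised and taken 120 h after fertilisation, in pools of 10 to 20 from 2 clutches (the extraction protocol gives 10). Each group had 2 libraries, and no other allele or agent is given for either. The labels give no clutch for a library, so p-values cover only the spread among these samples, which may be technical.

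The libraries labelled sibling did not match a whole larva in their gene reads. Of 13 photoreceptor genes 12 had no read in either sibling library, and likewise 6 of 7 lens genes and 4 of 7 neuronal genes. Summed reads of these 3 lists were 397 to 781 in each mutant library, against 0 to 3 in each sibling library. Skin genes took at least 0.982% of gene reads in each mutant library, against 0.0245% and 0.0116% in siblings, and germ cell genes had 8 and 0 reads in the mutant libraries, against 0 in both sibling libraries. The muscle list took 5.81% and 5.24% of gene reads in mutants, against 0.0267% and 0.0123% in siblings. The hepatocyte list took 0.637% and 0.368% in mutants, against 24.2% and 18.9% in siblings. The exocrine pancreas list took 13.6% in sibling replicate 2 and at most 0.0533% in each other library. Tissue make-up and genotype therefore cannot be told apart in any comparison below. In such bulk RNA, fewer cells of a type and less RNA per cell cannot be told apart either. The mutated gene itself, UHRF1 (ENSDARG00000103409), was covered by 7 and 9 reads in the mutant libraries, against 2 and 17 in the sibling libraries, too few to check the labels.

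The balance of repeat to gene reads also differed between the groups. There were 16.9 and 18.7 repeat reads per gene read in the mutant libraries, against 3.44 and 1.98 in the sibling libraries. Gene reads were 571978 and 564941 in mutants, against 613370 and 812167 in siblings. Every level below depends on what a repeat count is set against. CPM here are counts of repeat reads scaled to the gene reads of the same library (per 1e6 of them, after TMM scaling of the genes), so that a shift of all repeats together stays visible. The same counts were also fitted with scaling factors taken from the repeats, which measures a family against the other repeats of its library. Fold changes are mutant over sibling. The value after ± is the standard error for log2 fold changes, from 2 libraries per group. Calls are from the quasi-likelihood test of edgeR with Benjamini-Hochberg adjusted p under 0.05 over all repeat names tested. A counted read matched a copy of a family. Its source, such as a transcript of the element or a host transcript that contains a copy, was not tested.

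Relative to genes, the summed EnSpm level was 2.04 times as high in mutants, and 17 of the 19 families rose. The summed EnSpm level was 228770 and 247483 CPM in mutants, against 130524 and 103306 CPM in siblings. The means were 238126 ± 13232 CPM in mutants and 116915 ± 19246 CPM in siblings (SD, n = 2 each). This is a log2 ratio of 1.03, which was 2.64 with total gene reads as library size, 3.63 with scaling to ribosomal protein genes and 0.32 with gene plus repeat reads. The groups did not overlap. No p is given for a sum over members, and an exact two-sided permutation test of 2 against 2 libraries cannot go below 0.333. By family, 17 rose, 0 fell and 2 did not pass (edgeR quasi-likelihood test). At an unadjusted p under 0.05, and with DESeq2, 0 families fell as well. With DESeq2 2.55% of all repeat names and 0.693% of named families were called lower. The share that rose is close to that of the background: 76.7% of all 3366 repeat names tested were called higher and 4.25% lower, and among named families 89.3% were higher and 1.19% lower. The median log2 fold change was 1.64 over the EnSpm families, against 1.98 over all repeat names tested and 2.00 over named families. Over the 8133 genes tested it was 0.48, so the typical gene was not at 0 in this scaling. For 17 families both mutant libraries stood above both sibling libraries, as for 85.7% of all repeat names tested, and for 1 family they stood below, as for 5.91%.

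**Figure D1:**
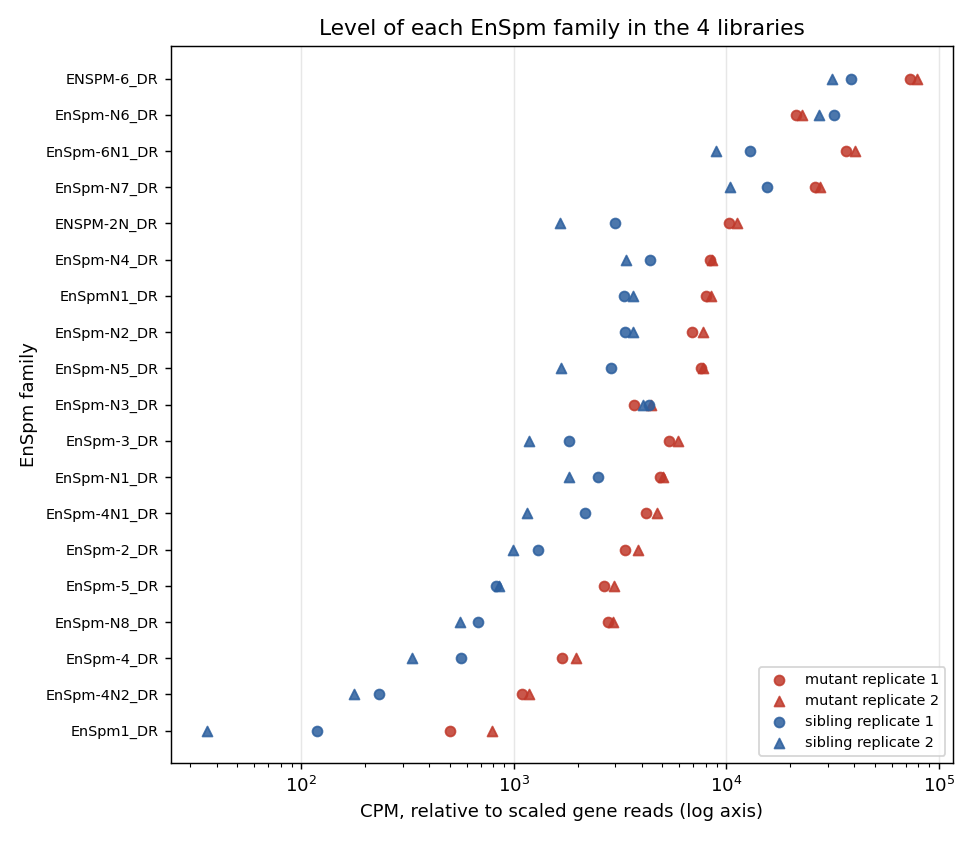
Level of each of the 19 EnSpm families in each library, as CPM relative to scaled gene reads on a log axis, with families ordered by their mean over the 4 libraries. Red symbols are mutants and blue symbols are siblings. Both mutant libraries lie right of both sibling libraries for 17 families, EnSpm-N3_DR overlaps, and EnSpm-N6_DR lies left.

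Among the 6 autonomous names all rose, with a median log2 fold change of 1.83. ENSPM-6_DR was the most abundant EnSpm family. It had 67398 and 73744 reads in the mutant libraries, against 14217 and 11371 in the sibling libraries, or 73117 and 79153 CPM in mutants against 38436 and 31396 CPM in siblings. The groups were separate, and the rise of 1.12 ± 0.26 on the log2 scale was among the smaller ones that passed (edgeR adjusted p = 0.00239). It did not pass without mutant replicate 2 (adjusted p = 0.051), with gene plus repeat reads (0.063) or with total repeat reads as library size, where its log2 fold change was 0.016 (adjusted p = 0.886). EnSpm1_DR was the scarcest family and had the largest fitted rise, with 462 and 733 reads in the mutant libraries, against 44 and 13 in the sibling libraries. That is 501 and 787 CPM in mutants, against 119 and 35.9 CPM in siblings, a rise of 3.05 ± 0.50 (edgeR adjusted p = 0.000402). Its replicates were also the furthest apart, by a ratio of 1.57 between the mutants and 3.31 between the siblings, and its standard error was the largest of the 19.

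The other 4 autonomous families lay between these in level and in rise. EnSpm-3_DR had 5359 and 5950 CPM in mutants, against 1811 and 1179 CPM in siblings, and rose by 1.92 ± 0.31. EnSpm-2_DR had 3324 and 3835 CPM in mutants, against 1306 and 991 CPM in siblings, and rose by 1.64 ± 0.29. In both the lower mutant library stood well above the higher sibling library. EnSpm-5_DR had sibling libraries closer to each other than any other EnSpm family, with 2657 and 2961 CPM in mutants, against 822 and 856 CPM in siblings, and rose by 1.74 ± 0.28. EnSpm-4_DR had 1685 and 1956 CPM in mutants, against 565 and 331 CPM in siblings, and rose by 2.02 ± 0.33. The edgeR adjusted p of these 4 lay between 0.000378 and 0.000648.

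Of the 13 non-autonomous names 11 rose and 2 did not pass, with a median log2 fold change of 1.25. EnSpm-6N1_DR, which by its name is a relative of ENSPM-6_DR, had 36724 and 40259 CPM in mutants, against 12963 and 8976 CPM in siblings. It rose by 1.81 ± 0.28 (edgeR adjusted p = 0.000323) and was the second most abundant EnSpm family in mutants. EnSpm-N7_DR had 26209 and 27738 CPM in mutants, against 15529 and 10390 CPM in siblings. Its rise of 1.06 ± 0.28 was the smallest that passed (edgeR adjusted p = 0.0056), and with mutant replicate 1 left out its adjusted p was 0.056, with mutant replicate 2 left out 0.064.

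The largest rises among the non-autonomous names were in EnSpm-4N2_DR, EnSpm-N8_DR and ENSPM-2N_DR. EnSpm-4N2_DR had 1097 and 1179 CPM in mutants, against 233 and 177 CPM in siblings, and rose by 2.47 ± 0.31 (edgeR adjusted p = 0.000141). EnSpm-N8_DR had 2780 and 2941 CPM in mutants, against 679 and 558 CPM in siblings, and rose by 2.21 ± 0.29 (edgeR adjusted p = 0.000162). ENSPM-2N_DR had 10277 and 11183 CPM in mutants, against 2998 and 1643 CPM in siblings. Its rise was 2.21 ± 0.33 (edgeR adjusted p = 0.000273), although the siblings differed from each other by a ratio of 1.83. These 3 had the smallest p of all EnSpm families. Over the 19 families the fitted log2 fold change was lower where the mean level was higher, with a Spearman rho of -0.64. This is a description across families that share the same libraries, and it is given without a test. The mean level was taken from the same libraries as the fold change, so the values correlated are not independent of each other.

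The other 6 non-autonomous families that rose had moderate changes. EnSpm-N5_DR had 7637 and 7740 CPM in mutants, against 2866 and 1665 CPM in siblings, and rose by 1.76 ± 0.32. EnSpm-4N1_DR had 4183 and 4739 CPM in mutants, against 2166 and 1149 CPM in siblings, and rose by 1.43 ± 0.34. Its siblings differed by a ratio of 1.89, more than those of any other family except EnSpm1_DR. EnSpmN1_DR had 8028 and 8509 CPM in mutants, against 3301 and 3631 CPM in siblings. EnSpm-N1_DR, a separate name, had 4894 and 5031 CPM in mutants, against 2479 and 1811 CPM in siblings. Mutants of both names stood above siblings without overlap. EnSpm-N4_DR had 8384 and 8553 CPM in mutants, against 4388 and 3366 CPM in siblings. EnSpm-N2_DR had 6865 and 7739 CPM in mutants, against 3325 and 3623 CPM in siblings. These last 4 rose by between 1.07 and 1.25 on the log2 scale, and the edgeR adjusted p of the 6 families lay between 0.000696 and 0.00392.

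EnSpm-N6_DR and EnSpm-N3_DR were the families that did not pass. EnSpm-N6_DR had 19709 and 21262 reads in the mutant libraries, against 11913 and 9944 in the sibling libraries. Set against gene reads this was 21381 and 22821 CPM in mutants, against 32207 and 27456 CPM in siblings, so that it was the only EnSpm family with both mutant libraries below both sibling libraries. The log2 fold change was -0.43 ± 0.25 (edgeR adjusted p = 0.134). With 1 library left out it ranged from -0.51, without sibling replicate 2 (the library rich in pancreas reads), to -0.27, without mutant replicate 1. With DESeq2 on all 4 libraries it was -0.062 (DESeq2 adjusted p = 0.848). EnSpm-N3_DR had 3668 and 4409 CPM in mutants, against 4331 and 4073 CPM in siblings, and these groups overlapped. Its log2 fold change was -0.06 ± 0.27 (edgeR adjusted p = 0.848). Ranked from the lowest fold change among the 1010 named families tested, EnSpm-N6_DR stood at place 19 and EnSpm-N3_DR at place 29, and the next EnSpm family, EnSpm-N7_DR, at place 147.

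These directions depend on the scaling. With total gene reads as library size, without TMM, the median of all repeat names was 3.66 and all 19 EnSpm families rose, as did 94.4% of all repeat names tested, EnSpm-N6_DR by 1.19 and EnSpm-N3_DR by 1.57. Scaled to ribosomal protein genes, all 19 rose too, as did 97.7% of all repeat names, where the median of all repeat names was 4.71 and that of EnSpm 4.25. With total repeat reads as library size 10 rose and 2 fell, and the 2 that fell were EnSpm-N6_DR and EnSpm-N3_DR. In that fit 39% of all repeat names were called higher and 9.69% lower, and of named families 60.7% and 5.57%. In each of these scalings the EnSpm median was below that of all repeat names.

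Measured against the other repeats of the same library, the EnSpm families split. With repeat-derived scaling 1 family was higher in mutants, 7 were lower and 11 did not pass (edgeR quasi-likelihood test). Of all 3339 repeat names tested in that fit 11.9% were called higher and 15.5% lower, and of named families 19.6% and 15.4%. In these repeat-scaled levels both mutant libraries stood above both sibling libraries for 6 families, as for 40.6% of all repeat names tested, and below them for 10 families, as for 30.1%. EnSpm-N6_DR was 4.63-fold lower in mutants, at -2.21 ± 0.10 on the log2 scale (adjusted p = 0.000117). EnSpm-N3_DR was 3.60-fold lower, at -1.85 ± 0.15 (adjusted p = 0.000843). The other 5 that were lower, ENSPM-6_DR, EnSpm-N7_DR, EnSpm-N2_DR, EnSpm-N4_DR and EnSpm-N1_DR, lay between -0.73 and -0.55. EnSpm-4N2_DR was higher, at 0.71 ± 0.20 (adjusted p = 0.0472). EnSpm1_DR was at 1.33 ± 0.45 and did not pass (adjusted p = 0.0719).

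The calls relative to the other repeats were also made with each library left out. When either mutant library was left out, the families called lower relative to the other repeats were 2 each time, EnSpm-N6_DR and EnSpm-N3_DR, and 0 were called higher. Of all repeat names 10.5% were called lower and 4.27% higher with mutant replicate 1 left out, and 10.4% and 3.98% with mutant replicate 2 left out. Without sibling replicate 1, 9 were lower and 8 higher, and without sibling replicate 2, 9 were lower and 4 higher. Of all repeat names 18.9% were lower and 19.2% higher without sibling replicate 1, and 18.3% and 22.2% without sibling replicate 2. Of named families 23.3% were lower and 44.8% higher without sibling replicate 1, and 27.4% and 37.5% without sibling replicate 2. The log2 fold change relative to the other repeats ranged from -2.26 to -2.11 for EnSpm-N6_DR and from -1.96 to -1.68 for EnSpm-N3_DR over the 4 fits, and both passed in each.

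**Figure D2:**
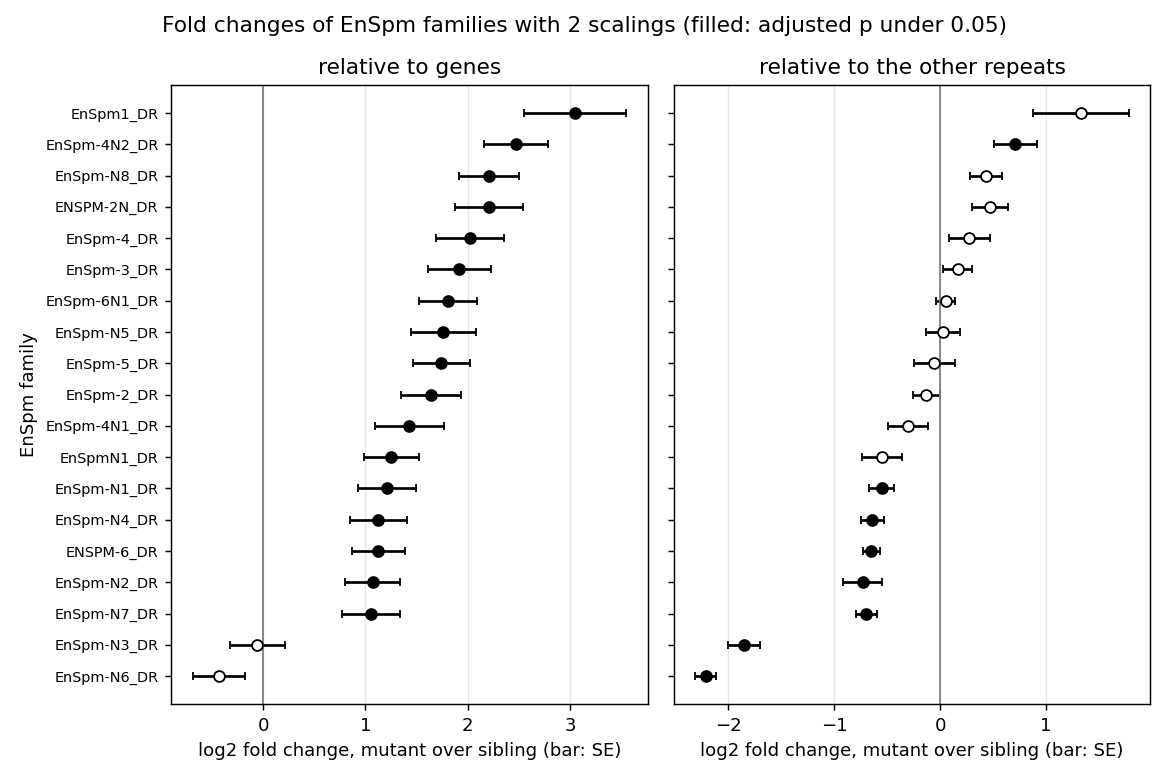
Log2 fold change (mutant over sibling, bars are standard errors, n = 2 libraries per group) of the 19 EnSpm families, relative to genes on the left and relative to the other repeats on the right. The 2 panels have different horizontal ranges. Filled points passed an adjusted p of 0.05: 17 rose on the left, while on the right 7 were lower and 1 higher, with EnSpm-N6_DR and EnSpm-N3_DR lowest in both.

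The share a family takes of all EnSpm reads does not depend on any scaling. EnSpm-N6_DR made up 9.35% (Wilson 95% interval 9.22% to 9.47%) and 9.22% (9.10% to 9.34%) of EnSpm reads in mutants, against 24.7% (24.3% to 25.1%) and 26.6% (26.1% to 27.0%) in siblings. EnSpm-N3_DR made up 1.60% and 1.78% in mutants, against 3.32% and 3.94% in siblings. Both families made up a larger part of the EnSpm reads in siblings. The groups did not overlap in these shares, but neither did they for most of the other EnSpm families, ENSPM-6_DR among them. EnSpm-6N1_DR made up 16.1% and 16.3% in mutants, against 9.93% and 8.69% in siblings, and ENSPM-2N_DR 4.49% and 4.52% in mutants, against 2.30% and 1.59% in siblings. The share of ENSPM-6_DR was close in all libraries, at 32.0% in each mutant, against 29.4% and 30.4% in siblings. Shares are parts of the same total, so the larger part of EnSpm-N6_DR in siblings lowers the shares of the other families there. Similar shares of ENSPM-6_DR therefore do not mean an unchanged level. Relative to the other repeats it was lower in mutants, at -0.65 on the log2 scale (edgeR adjusted p = 0.00351). These intervals cover counting error only.

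**Figure D3:**
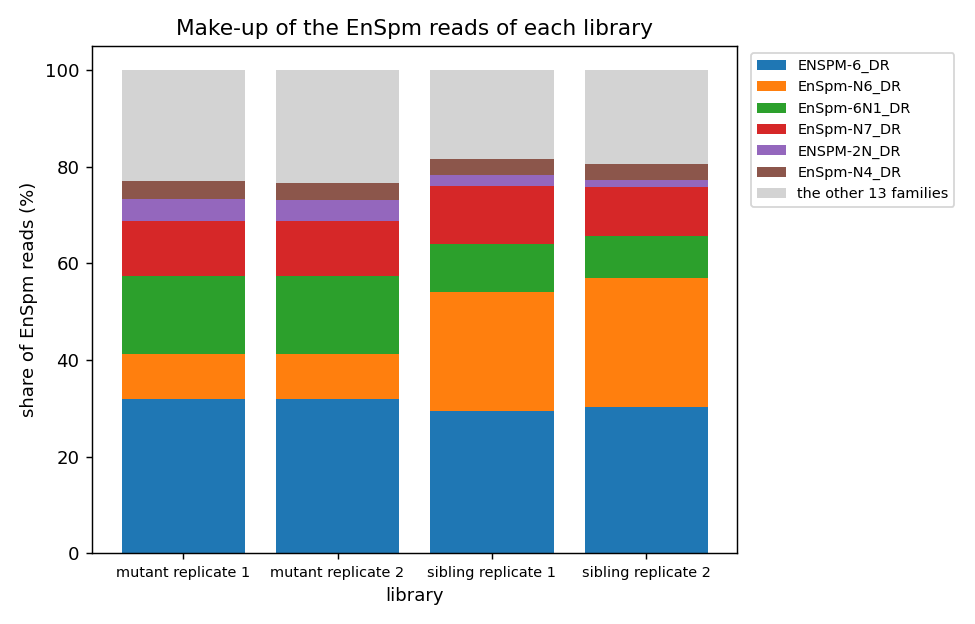
Make-up of the EnSpm reads of each library in percent, for the 6 families with the highest mean level and the other 13 together. EnSpm-N6_DR (orange) takes 9.22% to 9.35% in mutants and 24.7% to 26.6% in siblings, while ENSPM-6_DR (blue) takes 29.4% to 32.0% in all 4. The shares of a library are parts of the same total, so they are not independent of each other.

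The sign of the difference in the superfamily's own share turned with EnSpm-N6_DR when all repeat reads were the denominator. EnSpm took 2.18% of repeat reads in each mutant library (Wilson 95% intervals 2.17% to 2.19% in both), against 2.29% (2.27% to 2.31%) and 2.32% (2.30% to 2.34%) in siblings. Without the reads of EnSpm-N6_DR, an alternative chosen after its values were seen, the share was 1.98% in each mutant library, against 1.72% and 1.70% in siblings, which is the opposite direction. Out of the reads of named families alone, the remaining 18 families took 2.60% and 2.57% in mutants, against 2.74% and 2.66% in siblings, so on that denominator the share stayed lower in mutants. Non-autonomous names made up 62.1% and 61.8% of EnSpm reads in mutants, against 67.0% and 66.3% in siblings. Without EnSpm-N6_DR they made up 58.2% and 57.9% in mutants, against 56.2% and 54.1% in siblings, which is again the opposite direction.

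Names that share a number allow a non-autonomous family to be set against the autonomous family it is named after, with no scaling. EnSpm-6N1_DR had 0.502 and 0.509 reads per read of ENSPM-6_DR in mutants, against 0.337 and 0.286 in siblings. ENSPM-2N_DR had 3.09 and 2.92 reads per read of EnSpm-2_DR in mutants, against 2.30 and 1.66 in siblings. In both the ratio was higher in mutants. For number 4 the 2 non-autonomous families went opposite ways. EnSpm-4N1_DR had 2.48 and 2.42 reads per read of EnSpm-4_DR in mutants, against 3.83 and 3.47 in siblings. EnSpm-4N2_DR had 0.651 and 0.603 in mutants, against 0.411 and 0.533 in siblings. None of the 4 ratios overlapped between the groups, but neither did 83% of all 171 pairs of EnSpm names, and the exact permutation test of 2 against 2 cannot pass. Whether reads move between such related names when they match both was not tested.

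**Figure D4:**
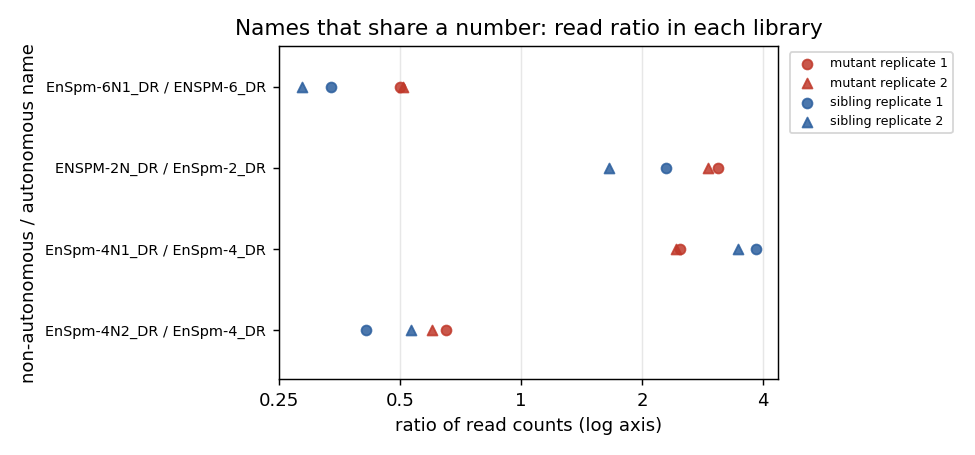
Read count of a non-autonomous family divided by that of the autonomous family with the same number, in each library, on a log axis. Red symbols are mutants and blue symbols are siblings. The ratio is higher in mutants for the 3 pairs EnSpm-6N1_DR, ENSPM-2N_DR and EnSpm-4N2_DR, and lower for EnSpm-4N1_DR.

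Other DNA transposon superfamilies in the same fit are given as reference values. Relative to genes, 90 of 94 hAT names, 17 of 18 Harbinger names and 44 of 47 Tc1, Mariner and TDR names rose and 0 fell. Their median log2 fold changes were 1.96, 1.81 and 1.57, against 1.64 for EnSpm. With repeat-derived scaling 12.8% of hAT names, 22.2% of Harbinger names and 40.4% of Tc1, Mariner and TDR names were lower, against 36.8% for EnSpm. In the same order 17.0%, 5.56% and 14.9% were higher, against 5.26% for EnSpm. The medians in that fit were 0.19, 0.053 and -0.18, against -0.13 for EnSpm. As a share of repeat reads, hAT took 10.1% and 10.3% in mutants, against 7.05% and 6.58% in siblings. Harbinger took 3.28% and 3.41% in mutants, against 2.31% and 2.12% in siblings, and the Tc1, Mariner and TDR names 13.7% and 13.9% in mutants, against 11.0% and 10.3% in siblings. Of these 4 groups of names, only EnSpm had a lower share of repeat reads in mutants, and without EnSpm-N6_DR its share of repeat reads was higher there.

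**Figure D5:**
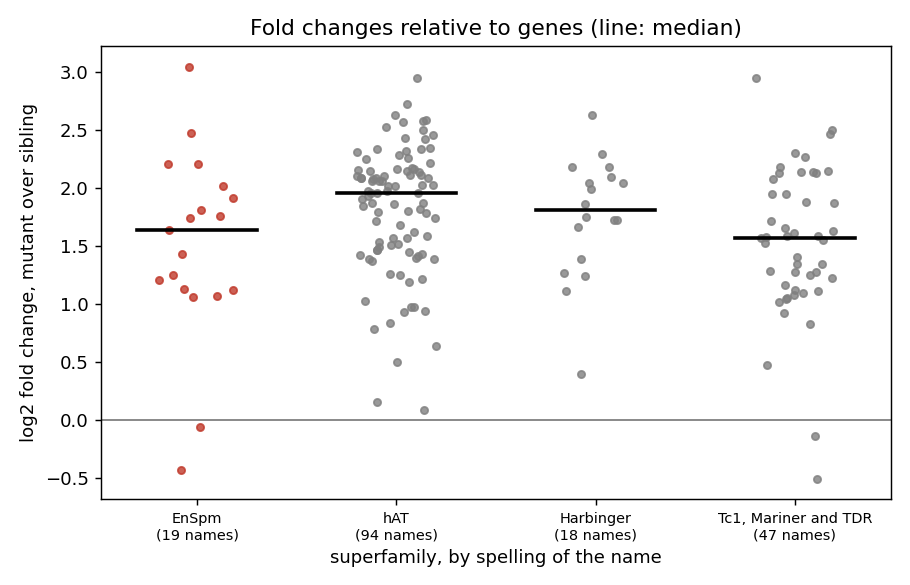
Log2 fold change relative to genes (mutant over sibling) of each name in 4 DNA transposon superfamilies, sorted by the spelling of the name and spread sideways for visibility, with the median as a line. EnSpm (red) has a median of 1.64 and spans -0.43 to 3.05, and its 2 lowest points are EnSpm-N6_DR and EnSpm-N3_DR. The lowest hAT name is at 0.088, the lowest Harbinger name at 0.39 and the lowest of the Tc1, Mariner and TDR names at -0.51.

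Genes that write, read or remove DNA methylation, or that form heterochromatin, were thinly read. Of the 13 genes of the DNA methylation list that were found, 8 were tested, of which 6 rose and 0 fell. Of the 6, TET1, TET2 and tet3 encode enzymes that oxidise methylcytosine, a step towards its removal, and the others were DNMT1, dnmt3ba and ZBTB33. TET2 had 53 and 69 reads in the mutant libraries, against 5 and 4 in the sibling libraries, and rose by 2.40 ± 0.44 (edgeR adjusted p = 0.000507). The de novo methyltransferase dnmt3ba and the oxidising enzyme tet3 rose by 1.91 ± 0.56 and 2.33 ± 0.70, and DNMT1 by 1.51 ± 0.46. Of 11 genes of H3K9 methylation and heterochromatin 8 were tested, of which 3 rose and 0 fell: atf7ip, a partner of an H3K9 methyltransferase, by 1.71 ± 0.46, the chromatin remodeller ATRX by 1.03 ± 0.33 and the methyltransferase EHMT2 by 2.23 ± 0.72. Sibling replicates 1 and 2 had 1 and 9 reads of dnmt3ba, 0 and 5 of tet3, and 4 and 14 of DNMT1. They had 8 and 3 reads of atf7ip, 26 and 34 of ATRX, and 1 and 1 of EHMT2. Most of these fold changes therefore rest on few sibling reads. Of all genes tested 35.2% were called higher and 25.9% lower, and their median log2 fold change was 0.48. No gene of the piRNA pathway, which represses transposons in the germ line, passed the count filter, and the 13 found had 29 and 12 reads in all in the mutant libraries, against 10 and 17 in the sibling libraries. Of the genes of these 3 lists 1 rose when either mutant library was left out, where 3.86% and 8.32% of all genes did. With sibling replicate 1 left out 4 rose, where 16.5% of all genes did. With no count filter 1 rose, which was TET2, where 4.69% of all genes did.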

How the data were processed

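Total RNA of pooled larvae was sequenced after removal of ribosomal RNA (1000 ng per library, 75 bp single-end reads, per the labels' protocols). The authors deposited raw read counts per gene and per repeat name, in 1 column for each library (per the file headers). Per the submitters' processing notes, TopHat2, HTSeq and DESeq2 were used with the build GRCz10, and no version is named. How reads with several matches, strand and repeat annotation were handled is not given in the sources used here, so counts of related families depend on how shared reads were assigned. No sequence or position of a family was used here.

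Repeat counts were tested with edgeR 4.0.16 (R 4.3.3), quasi-likelihood test with robust fit, after its default count filter by group, over the whole repeat table. The filtered gene counts set library sizes and TMM factors (factors 1.78 and 1.83 for mutants, 0.63 and 0.485 for siblings). Genes were tested alike. The standard error is the log2 fold change divided by the root of the F statistic. A count of 0 allows 3.25 and 3.22 CPM in mutants and 8.11 and 8.28 CPM in siblings, taking 3 counts as the floor. Alternatives used other scalings, DESeq2 1.42.0, other filters, a replicate block and each library left out. On simulated repeat counts, scaled by their own TMM, the fit recovered 8.85% of 192 changes of 2-fold, with 1 false call. It recovered 87.1% of 194 changes of 4-fold, with 7 false calls. Recovery with scaling to genes, where 76.7% of all repeat names tested were called higher, was not tested. These percentages are therefore not the sensitivity of the calls relative to genes. All simulated names shared a common dispersion, which was estimated with gene-derived scaling. The percentages are therefore not the sensitivity of the calls relative to the other repeats either. The members and lists were chosen with earlier results of these data known. The families named were the 10 highest by CPM, the 6 largest increases, the 3 smallest p and the 3 largest replicate ratios. The rule also covered the 6 largest decreases, but no family passed as lower relative to genes. The named families took 16 of 19, and the other 3 are given because all members are. Replicates differed beyond sampling noise: the chi-square per degree of freedom over EnSpm names was 7.36 between the mutants and 26.1 between the siblings. Some of the symbols listed for DNA methylation, heterochromatin and the piRNA pathway (13 of 19, 11 of 19 and 13 of 16) and for tissues were matched to identifiers.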

Additional observations from a re-analysis of the deposited data

How the results depend on the processing

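Counts and fold changes of EnSpm families relative to genes depended on the scaling, and counts relative to the other repeats depended on each of the 4 libraries. Tissue make-up coincides with genotype, and 2 libraries per group limit every test. Depth limits EnSpm1_DR, with as few as 13 reads in a library, and the methylation and heterochromatin genes.

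With repeat-derived TMM 1 family was higher and 7 lower, with a median log2 fold change of -0.13. Of the autonomous names 0 were higher and 1 lower (median 0.056), and of the non-autonomous 1 and 6 (median -0.55). Families whose sign turned and that were called lower were ENSPM-6_DR (-0.65), EnSpm-N1_DR (-0.55), EnSpm-N2_DR (-0.73), EnSpm-N4_DR (-0.64) and EnSpm-N7_DR (-0.70). The sign also turned in EnSpm-2_DR (-0.13), EnSpm-4N1_DR (-0.31), EnSpm-5_DR (-0.054) and EnSpmN1_DR (-0.55). These did not pass in that fit (edgeR adjusted p 0.483, 0.260, 0.859 and 0.074). With total gene reads the medians were 3.25 over all EnSpm names, 3.45 over autonomous and 2.90 over non-autonomous names, EnSpm-N3_DR was at 1.57 and EnSpm-N6_DR at 1.19, the log2 ratio of summed EnSpm reads was 2.64, and 16 methylation and heterochromatin genes rose. With ribosomal protein scaling the medians were 4.25, 4.45 and 3.90, and these 2 families were at 2.57 and 2.18. The log2 ratio there was 3.63, and 16 of those genes rose. For total gene reads and ribosomal protein scaling, the share of all genes that rose is not given here. With gene plus repeat reads as library size 11 families were higher and 2 lower (medians 0.93, 1.12 and 0.53), 6 and 2 of them non-autonomous. The log2 ratio there was 0.32. In that fit 54.0% of all repeat names were called higher and 7.16% lower, and of named families 74.1% and 2.98%. With total repeat reads 10 were higher and 2 lower (medians 0.54, 0.72 and 0.12), 5 and 2 of them non-autonomous, with EnSpm-N2_DR at -0.063 and EnSpm-N7_DR at -0.033. These settings differ in the library sizes and scaling factors used. The count filter on repeat names was applied anew in each, so the names tested ranged from 3295 to 4076.

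With DESeq2 the medians of autonomous and non-autonomous names were 2.20 and 1.63, EnSpm-N3_DR was at 0.32, and the same number of families, 17, rose. Called higher there were 70.4% of all repeat names and 91% of named families. With no count filter 15 families and 1 of those genes rose, where 24.1% of all repeat names and 73.2% of named families did. The filter at 50 reads gave 17 families higher and 0 lower. There 77.1% of all repeat names were called higher and 4.27% lower. Of named families 89.2% were higher there, and a smaller share than of all repeat names was lower. The EnSpm share of the reads of named families had a log2 ratio of -0.35, against -0.08 over all repeat reads. Without the reads of EnSpm-N6_DR the log2 ratios were 1.31 for summed reads, 0.21 for the share of repeat reads and 0.073 for the non-autonomous share, an alternative chosen after seeing the data.

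With 1 library left out, the median log2 fold change relative to genes ranged from 1.46 to 1.89 over the EnSpm families. It ranged from 2.00 to 2.42 over all repeat names tested and from 1.78 to 2.37 over named families. Such fits assume that the lone library varies like the other group. Medians ranged from 1.70 to 2.09 for autonomous and from 1.17 to 1.49 for non-autonomous names. EnSpm-N3_DR ranged from -0.067 to 0.18, turning without mutant replicate 1 and without sibling replicate 1 (0.025). ENSPM-6_DR and EnSpm-N2_DR did not pass without mutant replicate 2 (adjusted p 0.051 and 0.071). The number of methylation and heterochromatin genes called also changed with the library left out. Without sibling replicate 2 the share of all genes called is not given here. Relative to the other repeats, families higher ranged from 0 to 8 and lower from 2 to 9, in fits added after seeing the data. The cause was not tested.

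Replicate numbers do not pair the libraries by the labels, and deviations of same-numbered libraries had a correlation of -0.02 over repeat names and 0.03 over genes. With the replicate number as a block 17 families were higher and 0 lower (median 1.65). In that fit 62.9% of all repeat names and 85.5% of named families were higher. Of the methylation and heterochromatin genes 8 rose there, and the share of all genes is not given here. Relative to the other repeats, the block gave 2 families higher, ENSPM-2N_DR and EnSpm1_DR, and 8 lower. In that fit 11.2% of all repeat names were called higher and 14.1% lower, and of named families 19.2% and 15.0%. EnSpm-4N2_DR did not pass there (adjusted p 0.111).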
